A study of Drosophila melanogaster with 4 samples.

Results

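The 8 genes described here act in the Drosophila melanogaster egg as it completes meiosis and starts the embryonic cell cycles: png, plu and gnu of the Pan Gu (PNG) kinase, the meiotic regulators mtrm, cort and sra, the poly(A) polymerase gene wisp and the nuclear envelope gene fs(1)Ya. They were chosen by name for these roles, with earlier results of these data known. All 8 were found among the 14001 annotated genes covered by the deposited tables and all 8 among the 6042 genes that passed the filter on low reads. RNA was read from whole embryos of strain w118 collected 4–5 h after egg laying (2 libraries), when the embryo transcribes its own genes, and 0–1 h after egg laying (2 libraries), when most RNA is maternal. The assay was Nanopore direct RNA sequencing of total RNA, in which each read comes from 1 native RNA molecule. Whether the length of the poly(A) tail affected which RNAs were read was not tested. No mutation or treatment is labelled in either group. The p-values here weigh the difference between stages against the fitted spread between the 2 libraries of a stage. Since separate embryo collections are not recorded for the replicates, that spread may be technical variation only.

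Egg activation in the fly is set off as the egg passes down the oviduct, with a rise of calcium and without a need for sperm. Calcineurin signalling and a special form of the anaphase-promoting complex (APC/C) then take the egg out of its meiotic arrest. At the same time the PNG kinase, made of a catalytic subunit and a pair of activating subunits, phosphorylates translational regulators and so changes which maternal mRNAs are translated, among them those of Cyclin B and Smaug. Smaug in turn recruits enzymes that remove maternal mRNAs, a clearance that is largely complete for many of them before gastrulation.

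Depth was 883108 and 429525 reads per library at 4–5 h, against 573849 and 557433 at 0–1 h. The 13 patterning genes used to check the stage (such as eve, ftz and Kr) had 371 and 210 reads at 4–5 h, against 20 and 32 at 0–1 h, and all 10 that could be tested rose. Of 15 genes of follicle cells, eggshell and yolk, 11 had no read in any library and the list had 3 and 3 reads at 4–5 h, against 0 and 0 at 0–1 h. A set of 12 genes of differentiated muscle and cuticle had 95 and 83 reads at 4–5 h, against 2 and 0 at 0–1 h. Of these, Cpr65Au, Tm2 and TwdlM had none, and the only 1 that could be tested rose. Of 10 sperm and testis genes only bam, which also acts in the female germ line, had reads (2 and 3 at 4–5 h, against 49 and 60 at 0–1 h). The share of reads on ribosomal protein and rRNA genes was 51.1% and 50.6% at 4–5 h, against 23.4% and 26.3% at 0–1 h. Levels below are therefore CPM (reads per 1000000) on library sizes scaled with TMM, which sets the bulk of genes level between libraries. On this scale the tested genes had a median log2 change of −0.10, and on plain library size one of −1.29. A log2 change given in TPM is from log2(TPM + 1), where the median was −1.80.

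All 8 genes were lower at 4–5 h than at 0–1 h and passed the threshold (edgeR's quasi-likelihood test, Benjamini-Hochberg adjusted p under 0.05 over all tested genes), where 31.5% of all tested genes were called lower and 60.1% were called in either direction. All 8 were also called lower with library size only, where 63.3% of tested genes were (74.1% in either direction). Their median log2 change was −3.32, against −0.10 for all tested genes. The 8 genes together held 127 and 51 reads at 4–5 h, or 0.0144% and 0.0119% of the library, and 1911 and 1847 reads at 0–1 h, or 0.333% and 0.331%. The falls were far from equal: with TMM fs(1)Ya had the steepest, with 52 of the 6042 tested genes falling further, and sra the shallowest, with 2106 falling further. In whole embryos, fewer cells holding an mRNA and less of it per cell cannot be told apart.

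**Figure D1:**
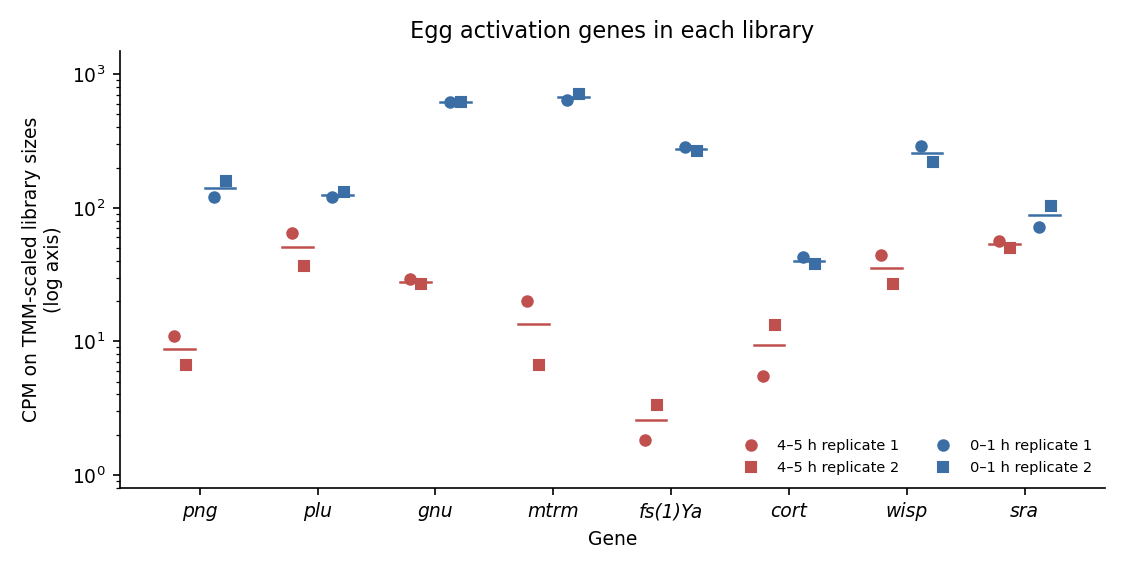
CPM on TMM-scaled library sizes (log axis) of the 8 egg activation genes in the 2 libraries at 4–5 h (red, left) and the 2 at 0–1 h (blue, right), with a line at each mean. Of the 8, sra has the smallest gap between the libraries of the 2 stages. It had 31 and 15 reads at 4–5 h against 63 and 85 at 0–1 h.

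The catalytic subunit gene png (FBgn0000826, chromosome X 1356488–1357601 of BDGP6, minus strand, a single exon encoding 291 amino acids) had 6 and 2 reads at 4–5 h, against 104 and 131 at 0–1 h. Its level averaged 8.84 ± 3.08 CPM at 4–5 h and 140 ± 28.5 CPM at 0–1 h (SD, n = 2 each), a log2 change of −3.86 (SE 0.42, edgeR adjusted p = 2.4e-13). What was left at 4–5 h was 6.81% of the 0–1 h level, with a 95% exact counting interval of 2.91% to 13.6%. Such intervals cover counting error only. Shares left are given on the TMM scale unless stated, and library size only lowers each of them by the same factor, to 0.368% for fs(1)Ya, 0.983% for mtrm, 6.35% for wisp and 8.87% for cort.

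gnu (FBgn0001120, 3L 14802380–14803360, minus strand), whose protein joins the complex at egg activation and turns the kinase on, was among the more abundant of the 8. It had 16 and 8 reads at 4–5 h, against 541 and 512 at 0–1 h, so that both late libraries were far below both early ones. Its mean was 28.0 ± 1.92 CPM at 4–5 h and 623 ± 2.02 CPM at 0–1 h (SD, n = 2 each), with a log2 change of −4.45 (SE 0.29, edgeR adjusted p = 1.3e-24). Only 4.56% of the early level was left (counting interval 2.91% to 6.82%).

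plu (FBgn0003114, 2R 20262958–20263684, minus strand), which encodes the ankyrin repeat subunit of the complex, fell much less. It had 35 and 11 reads at 4–5 h, against 104 and 108 at 0–1 h. The mean was 50.4 ± 19.5 CPM at 4–5 h and 126 ± 8.65 CPM at 0–1 h (SD, n = 2 each), and the log2 change was −1.24 (SE 0.30, edgeR adjusted p = 3.0e-04). The share left was 43.4% (counting interval 30.8% to 59.9%) on the TMM scale. With library size only the shares left were 18.7% for plu (13.29% to 25.8%), 2.93% for png (1.25% to 5.88%) and 1.96% for gnu (1.25% to 2.94%), and on either scale the interval of plu lay above the other two.

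The uneven falls changed the order of the 3 subunit mRNAs. Levels are given in the deposited TPM, which the authors scaled by effective length. Relative to reads, this scaling raises short transcripts. Since each read comes from 1 RNA molecule, reads need no scaling by length in principle, so ratios in reads are given here too. In TPM plu had 39.7 and 24.9 at 4–5 h, gnu 9.86 and 9.86, and png 2.88 and 1.92. At 0–1 h gnu led with 899 and 802 TPM, plu followed with 318 and 311, and png had 135 and 160. In reads, not scaled by length, the plu to png ratio was 5.83 and 5.50 at 4–5 h, against 1.00 and 0.824 at 0–1 h, so that plu stood above png at 0–1 h in TPM alone. Ratios within a library do not depend on how libraries are scaled. In TPM the plu to png ratio was 13.8 and 12.98 at 4–5 h, against 2.35 and 1.95 at 0–1 h, while the gnu to plu ratio was 0.249 and 0.396 at 4–5 h, against 2.83 and 2.58 at 0–1 h. In both the stages did not overlap. In reads the gnu to plu ratio was 0.457 and 0.727 at 4–5 h, against 5.20 and 4.74 at 0–1 h, also without overlap. The gnu to png ratio in TPM was 3.42 and 5.14 at 4–5 h and 6.66 and 5.02 at 0–1 h, and there the stages overlapped. With 2 libraries against 2 a two-sided exact permutation test cannot go below p = 0.333, so none of these ratios could pass a threshold.

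**Figure D2:**
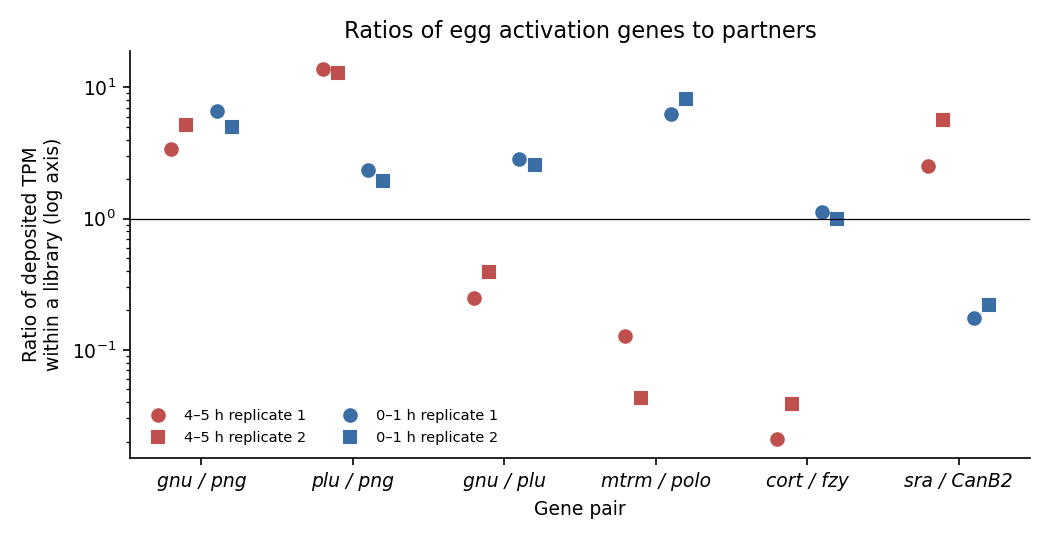
Ratio of the deposited TPM of 2 genes within each library (log axis), for the 2 libraries at 4–5 h (red, left) and the 2 at 0–1 h (blue, right), with a line at a ratio of 1. The stages overlap for gnu over png alone, and cort over fzy is 0.0208 and 0.0384 at 4–5 h against 1.12 and 0.997 at 0–1 h.

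mtrm (Matrimony, FBgn0010431, 3L 8413012–8414103, plus strand), which encodes the oocyte inhibitor of Polo kinase, fell more steeply still. It had 11 and 2 reads at 4–5 h, against 560 and 580 at 0–1 h. The mean was 13.4 ± 9.57 CPM at 4–5 h and 676 ± 45.2 CPM at 0–1 h (SD, n = 2 each), a log2 change of −5.47 (SE 0.32, edgeR adjusted p = 4.7e-27), which became −6.62 without 4–5 h replicate 1. The share left was 2.28% (counting interval 1.21% to 3.92%). The gene lies within the span of Exo70 on the same strand. Exo70 was counted 7 and 4 times in the 4–5 h libraries (mtrm 11 and 2). In the 0–1 h libraries it was counted 21 and 18 times (mtrm 560 and 580). Whether any reads of this pair were assigned to the wrong gene was not tested.

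The mRNA of its target kept a different course. polo had 280 and 151 reads at 4–5 h, against 289 and 230 at 0–1 h. With TMM its log2 change was 0.73 (SE 0.21, edgeR adjusted p = 0.0022). It was −0.46 with library size only and −1.20 in TPM, both called lower. The medians of all tested genes there were −1.29 and −1.80. Free of the scaling between libraries, the mtrm to polo ratio in TPM was 0.127 and 0.0429 at 4–5 h, against 6.28 and 8.18 at 0–1 h. In reads it was 0.0393 and 0.0132 at 4–5 h, against 1.94 and 2.52 at 0–1 h. The inhibitor's mRNA thus exceeded that of the kinase in both early libraries, in TPM and in reads, and was the lesser in both late ones.

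cort (FBgn0000351, 2L 6674682–6676635, minus strand) encodes the Cdc20-family activator of the APC/C that works in female meiosis. It was the least abundant of the 8 at 0–1 h in both reads and TPM. It had 3 and 4 reads at 4–5 h, against 37 and 31 at 0–1 h, a mean of 9.42 ± 5.53 CPM at 4–5 h and 40.2 ± 3.33 CPM at 0–1 h (SD, n = 2 each). The log2 change was −2.24 (SE 0.54, edgeR adjusted p = 2.2e-04), −1.58 without 4–5 h replicate 1 and −2.83 without 4–5 h replicate 2, and DESeq2 did not call it (−2.21, adjusted p = 0.055). At 20.6% left the counting interval ran from 7.98% to 44.8%. The gene's 3′ end overlaps that of cup and CG34310 on the opposite strand by 99 bp, and no source used here says whether counting used the strand.

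The relatives of cort behaved differently. fzy, the Cdc20 of mitotic cells, had 189 and 136 reads at 4–5 h, against 43 and 41 at 0–1 h, a log2 change of 2.99 (SE 0.26, edgeR adjusted p = 1.7e-17), and it rose under all 6 scalings tried. fzr, the Cdh1 relative that acts as cells leave the cycle, had 47 and 32 reads at 4–5 h, against 115 and 128 at 0–1 h (log2 change −0.60, SE 0.27, edgeR adjusted p = 0.044), and it was not called with RLE scaling or DESeq2. fzr2 had no read in any library. cort and fzy stood at nearly equal TPM at 0–1 h, 31.0 and 24.7 for cort and 27.5 and 24.8 for fzy. At 4–5 h cort had 0.935 and 2.48 TPM and fzy 44.9 and 64.6 TPM.

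fs(1)Ya (FBgn0000927, X 2724286–2726577, plus strand), which encodes a nuclear envelope protein needed for the passage from meiosis to the mitoses of the embryo, was close to gone. It had 1 read in each 4–5 h library, against 248 and 220 at 0–1 h. The share left was 0.855% of the early level, with a counting interval of 0.103% to 3.10%, and the edgeR log2 change was −6.75 (SE 0.48, adjusted p = 2.0e-22). At this depth 3 reads correspond to 5.51 and 9.99 CPM in the 4–5 h libraries, so a level below that could not be told from 0. By the same measure png and mtrm lay below this floor in 4–5 h replicate 2, with 2 reads each. cort lay at the floor in 4–5 h replicate 1, with 3 reads.

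wisp (FBgn0260780, X 11893943–11899920, plus strand) encodes the cytoplasmic poly(A) polymerase that lengthens the tails of maternal mRNAs at egg activation. It had 24 and 8 reads at 4–5 h, against 254 and 180 at 0–1 h. The mean was 35.4 ± 12.3 CPM at 4–5 h and 256 ± 51.1 CPM at 0–1 h (SD, n = 2 each), a log2 change of −2.78 (SE 0.30, edgeR adjusted p = 2.7e-13), with 14.7% left (counting interval 9.96% to 21.1%). Its relative Gld2 had 2 and 0 reads at 4–5 h and none at 0–1 h. hrg, the canonical nuclear poly(A) polymerase gene, had 16 and 13 reads at 4–5 h, against 20 and 25 at 0–1 h, and did not pass (log2 change 0.38, SE 0.41, edgeR adjusted p = 0.44). The wisp to hrg ratio in TPM was 1.05 and 0.454 at 4–5 h, against 8.60 and 4.95 at 0–1 h.

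sra (FBgn0086370, 3R 16186999–16197584, plus strand), which encodes the calcipressin that regulates calcineurin and is needed to complete meiosis, fell least and least surely. It had 31 and 15 reads at 4–5 h, against 63 and 85 at 0–1 h. The mean was 53.4 ± 4.90 CPM at 4–5 h and 88.0 ± 22.1 CPM at 0–1 h (SD, n = 2 each), and the log2 change was −0.70 (SE 0.31, edgeR adjusted p = 0.045). The counting interval of the 62.2% left ran from 43.6% to 87.1% on the TMM scale, and with library size only 26.8% was left (18.8% to 37.5%). Its call held in 8 of 15 alternatives, and it was lost with DESeq2 (adjusted p = 0.29), with RLE scaling (adjusted p = 0.062) and without 0–1 h replicate 2 (log2 change −0.44, adjusted p = 0.42). All the reads of sra were assigned to the transcript whose 5′ exon lies within the span of Bin1 on the opposite strand. Bin1 had 262 and 144 reads at 4–5 h, against 83 and 94 at 0–1 h, and whether reads passed between the 2 genes was not tested.

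Calcineurin itself, the phosphatase that sra regulates, is made of a catalytic and a regulatory subunit. The catalytic subunit genes Pp2B-14D and CanA-14F had 4 and 1 reads and 2 and 2 reads at 4–5 h, against 130 and 106 and 80 and 42 at 0–1 h. The regulatory subunit gene CanB2 had 10 and 3 reads at 4–5 h, against 228 and 235 at 0–1 h. Their log2 changes were −4.52 (SE 0.46), −3.86 (SE 0.55) and −4.15 (SE 0.35), all called lower by edgeR. The sra to CanB2 ratio in TPM was thus 2.53 and 5.64 at 4–5 h, against 0.174 and 0.220 at 0–1 h. The ratio of sra to Pp2B-14D in TPM was 20.8 and 40.2 at 4–5 h, against 1.17 and 1.70 at 0–1 h, also without overlap. In reads it was 7.75 and 15.0 at 4–5 h, against 0.485 and 0.802 at 0–1 h.

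**Figure D3:**
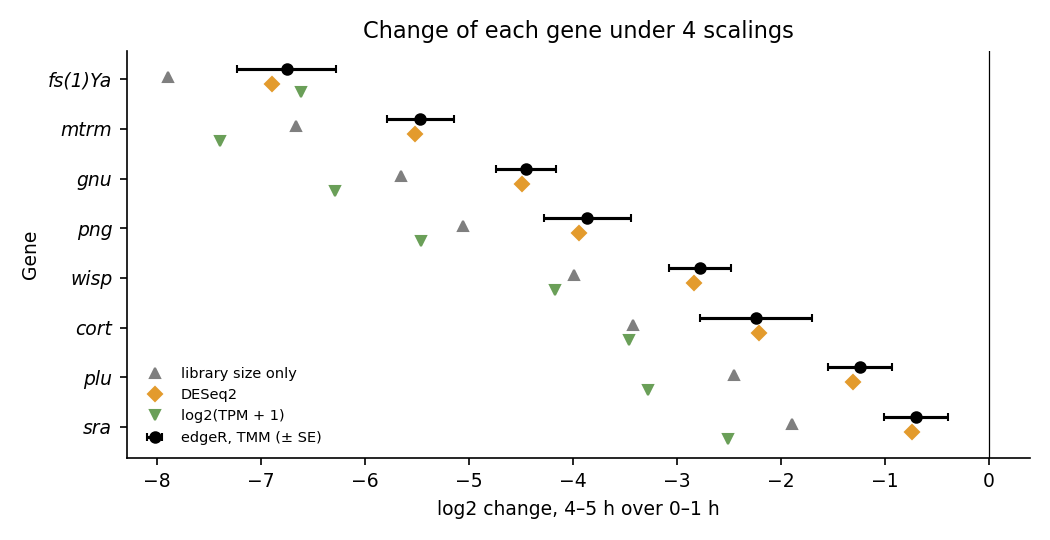
log2 change from edgeR with TMM (black, ± SE), with library size only (grey), from DESeq2 (orange) and from limma on log2(TPM + 1) (green), 4–5 h over 0–1 h, for the 8 genes in the order of the TMM fit, from steepest (top) to shallowest fall. Every point lies below 0, and library size moves sra to −1.89 and fs(1)Ya to −7.90.

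With TMM the falls ran, from steepest to shallowest, fs(1)Ya, mtrm, gnu, png, wisp, cort, plu, sra. mtrm had the steeper fall of the first pair without 4–5 h replicate 1 (−6.62 against −6.30 for fs(1)Ya). It also did in log2(TPM + 1) (−7.40 against −6.62) and in log2(TPM + 5) (−6.44 against −4.64). In mean TPM with nothing added, fs(1)Ya fell further, with 0.244% left against 0.503% for mtrm. fs(1)Ya rests on 1 read in each 4–5 h library. Neighbours in this order were 0.54 to 1.28 apart on the log2 scale. The gaps from gnu to png (0.59), wisp to cort (0.54), cort to plu (1.00) and plu to sra (0.54) were under 2 combined SE, and those from fs(1)Ya to mtrm, mtrm to gnu and png to wisp lay between 2.10 and 2.36 combined SE. The order of levels was not the order of falls. In TPM it ran gnu, mtrm and plu, then fs(1)Ya and png, then wisp and sra, then cort at 0–1 h, with fs(1)Ya and png, and wisp and sra, changing places between replicates. At 4–5 h it began with plu, gnu and sra and ended with fs(1)Ya in both libraries. In reads, not scaled by length, mtrm led at 0–1 h (560 and 580, against 541 and 512 for gnu). There plu (104 and 108) lay below fs(1)Ya (248 and 220) and wisp (254 and 180). The most reads at 4–5 h were on plu (35 and 11) and sra (31 and 15). mtrm and gnu made up 21.3% and 19.6% of the reads on the 8 genes at 4–5 h, against 57.6% and 59.1% at 0–1 h.

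**Figure D4:**
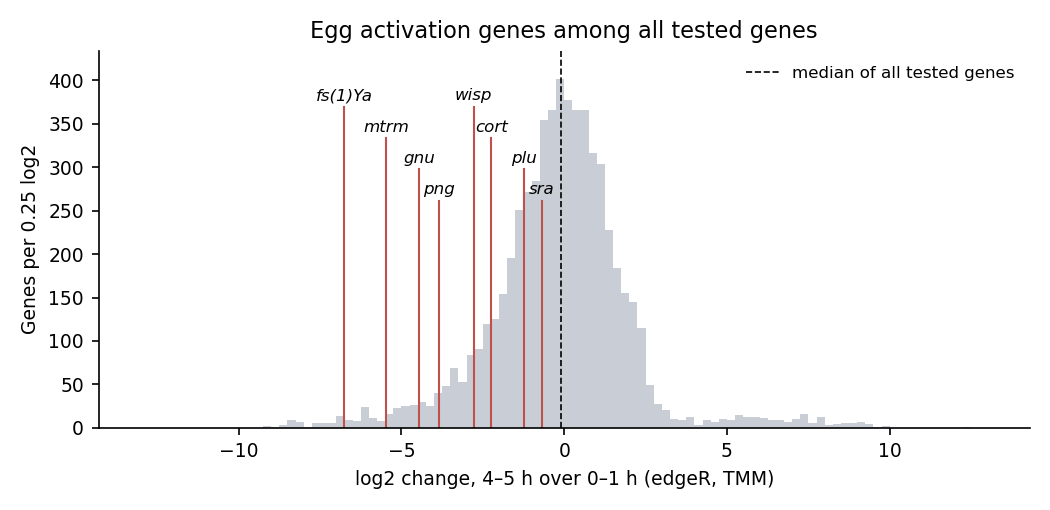
Histogram of the edgeR log2 change, 4–5 h over 0–1 h, of the 6042 tested genes, in steps of 0.25, with the 8 egg activation genes as red lines and the median of all genes, −0.10, dashed. sra and plu lie within the bulk of genes, and fs(1)Ya and mtrm lie in the left tail, where 0.861% and 1.90% of tested genes fell further.

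The 8 transcripts tend to be short and simple. Taking the transcript with most reads of each gene, their median length was 1350.5 nt, against 1905 nt for 5987 tested coding genes, with a median 3′ UTR of 144 nt against 275 nt and a median of 2 exons against 4. The range was wide: plu is 616 nt long with a 3′ UTR of 68 nt, wisp reaches 5320 nt, and the 3′ UTR of sra is 669 nt. png, fs(1)Ya and wisp, 3 of the 8, lie on the X chromosome, which holds 17.7% of tested genes.

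Of the 8, cort, sra and wisp are listed with more than 1 transcript, and wisp alone passed the filter for the test of isoform usage. It did not pass (diffSpliceDGE in edgeR, adjusted p = 0.999, where 14.2% of 823 genes were called). The transcripts of wisp differ little in sequence length, 5124 nt and 5320 nt for those with reads, and the assignment between them was not stable. All 24 reads of 4–5 h replicate 1 went to the longer transcript and all 8 of replicate 2 to the shorter. At 0–1 h replicate 1 had 44.6 on the longer and 209 on the shorter, while replicate 2 had 180 and 0. With all transcripts that had a read kept, cort could be tested as well and did not pass (adjusted p = 0.403). The sums per gene used above do not depend on this split.

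The 5 tested genes nearest to the mean profile of png, plu and gnu (Euclidean distance in log2 CPM over the 4 libraries) were Fum1, Glyp, stas, Hsc70-3 and cad, at distances from 0.463 to 0.559. png, plu and gnu themselves lay 1.92, 1.78 and 2.13 from that mean. The 5 genes were picked for being nearest, and the distance also takes in how far genes differ in level.

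Genes known to work with the 8 were called in both directions. Over 5 lists with 63 tested genes 22 fell and 21 rose with TMM, where 31.5% and 28.6% of all tested genes did. With library size only 45 fell and 5 rose, where 63.3% and 10.9% of all tested genes did. In the list of PNG substrates and translational targets 13 of 13 measured genes were tested, 5 fell and 4 rose with TMM, with a median of 0.36, and 11 fell with library size only. The repressors tral, me31B and cup, whose proteins hold maternal mRNAs silent, fell, with cup at 9 and 5 reads at 4–5 h against 152 and 100 at 0–1 h (log2 change −3.15, SE 0.37). muskelin, a subunit of the ubiquitin ligase that removes those repressors, fell by 2.63 (SE 0.30). These 4 falls held under all 6 scalings. CycB, CycA and Cdk1 of the mitotic kinase rose with TMM, by 0.59 (SE 0.21), 1.38 (SE 0.22) and 1.09 (SE 0.24). CycB was called lower with library size only (−0.60) and in TPM (−1.34), and Cdk1 lower in TPM (−0.84). CycA was called neither with library size only nor in TPM. With library size without ribosomal protein and rRNA genes CycA and Cdk1 were called higher (0.81 and 0.52), and CycB was not called (0.01). smg, the best known PNG target, did not pass (log2 change 0.36, SE 0.26, edgeR adjusted p = 0.23), although it was called lower with library size only (−0.84) and in TPM (−1.39).

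In the calcium and calcineurin list 9 of 13 genes were tested. With TMM 5 fell and 1 rose, with a median of −1.05, where 31.5% and 28.6% of all tested genes did. With library size only 8 fell and 1 rose, where 63.3% and 10.9% of all tested genes did. Besides the 3 calcineurin genes, the calmodulin-dependent kinase gene CaMKI fell by 1.37 (SE 0.33). Calmodulin itself, Cam, had 545 and 387 reads at 4–5 h, against 236 and 184 at 0–1 h, a log2 change of 2.20 (SE 0.22), and was called higher under every scaling tried but TPM (0.17). The calcium channel gene Trpm, with 2 and 2 reads at 4–5 h and 8 and 9 at 0–1 h, was too low to test.

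In the list for meiotic exit, with 19 of 20 genes tested, 8 rose and 4 fell with TMM, with a median of 0.14, where 28.6% of all tested genes rose and 31.5% fell. With library size only 2 rose and 13 fell, where 10.9% and 63.3% of all tested genes did. In TPM 2 rose and 17 fell, where 312 and 4798 of the 6042 tested genes did. twe, the Cdc25 phosphatase of meiosis, had 10 and 5 reads at 4–5 h, against 90 and 98 at 0–1 h (log2 change −2.64, SE 0.37), tws, a regulatory subunit of the phosphatase PP2A, changed by −2.38 (SE 0.29), and endos, the PP2A inhibitor of the Greatwall axis, by −0.87 (SE 0.22), and these 3 fell under all 6 scalings. Beside fzy, CycB3 rose, with 318 and 170 reads at 4–5 h and 64 and 59 at 0–1 h (log2 change 2.98, SE 0.24), also under all 6. vih and mts, an E2 enzyme gene of the APC/C and the PP2A catalytic subunit gene, rose with TMM by 0.89 (SE 0.22) and 0.78 (SE 0.24). They had negative changes with library size only (−0.29 and −0.42, neither called) and were called lower in TPM (−1.05 and −1.65). The median of all tested genes was −1.29 with library size only and −1.80 in TPM. The core APC/C genes mr, shtd, Cdc27, Cdc23 and ida did not pass with TMM and were called lower with library size only, from −0.98 to −1.95, and in TPM. Cdc16 and lmgA were called higher with TMM and RLE scaling and lower in TPM (−0.95 and −0.85).

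Among 11 tested genes of poly(A) tail lengthening and its readers, 4 rose and 3 fell with TMM, with a median of 0.05. Of all tested genes 28.6% rose and 31.5% fell with TMM. With library size only 7 of the 11 fell, where 63.3% of all tested genes did. The 3 that fell bind mRNA in the germ line. orb, the CPEB protein gene, had 2 and 2 reads at 4–5 h, against 131 and 118 at 0–1 h (log2 change −4.90, SE 0.47). BicC had 0 and 1 reads at 4–5 h, against 155 and 77 at 0–1 h, or 0.862% left (counting interval 0.0217% to 4.85%). orb2 had 1 and 0 reads at 4–5 h, against 20 and 10 at 0–1 h, or 6.67% left (counting interval 0.163% to 40.1%), and DESeq2 did not call it (adjusted p = 0.089). The poly(A) binding protein genes Pabp2 and pAbp and the cleavage factor genes Fip1 and Cpsf100 rose with TMM, by 1.30, 0.65, 1.33 and 0.96 (SE 0.25, 0.21, 0.31 and 0.35). With library size only none of these 4 was called higher and pAbp was called lower (−0.52), and in TPM pAbp, Pabp2 and Cpsf100 were called lower (−1.32, −0.63 and −0.88).

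Of 11 tested genes of the lamina and of pronuclear chromatin, 4 rose and 5 fell with TMM, with a median of 0.08. Over all tested genes 28.6% rose and 31.5% fell with TMM. With library size only 2 of the 11 rose and 6 fell, where 10.9% and 63.3% of all tested genes did. Those that act on the chromatin of the male pronucleus fell: dhd, a thioredoxin, and Hira and yem, a histone chaperone pair, by 5.67, 1.79 and 1.59 (SE 0.25, 0.44 and 0.38), with Hira not called by DESeq2. LBR, the lamin B receptor gene, fell by 1.17 (SE 0.29). Lam, whose lamin protein binds Ya, had 113 and 98 reads at 4–5 h, against 95 and 54 at 0–1 h (log2 change 1.58, SE 0.26), which was not called with library size only (0.40) and was −0.32 in TPM. baf, a chromatin to lamina link, rose by 1.91 (SE 0.22) with TMM and had an uncalled −0.29 in TPM. The heterochromatin protein gene HP1a (FBgn0003607) rose by 2.84 (SE 0.23) with TMM and was called higher under all 6 scalings (0.91 in TPM). sub, a kinesin gene of the meiotic spindle, rose by 1.03 (SE 0.27) with TMM and had −0.16, not called, with library size only, and was called lower in TPM (−0.98).

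**Figure D5:**
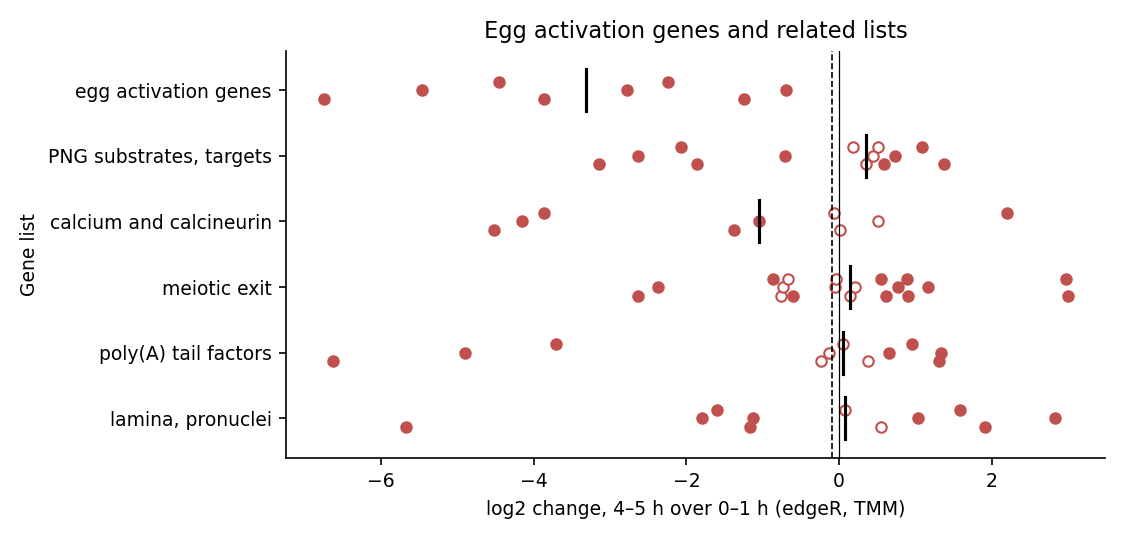
edgeR log2 change, 4–5 h over 0–1 h, of each tested gene in the 8 egg activation genes (top) and the 5 related lists, filled where the adjusted p was under 0.05, with a black bar at each list's median and a dashed line at the median of all tested genes. The egg activation genes all lie below 0 at a median of −3.32, and the other lists spread to both sides, at medians from −1.05 to 0.36.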

How the data were processed

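Per the submitters' processing notes, reads were processed with minimap2 and Salmon on BDGP6. No source used here gives their versions or settings. The deposited tables give, for each of 30652 transcripts, an expected count from Salmon, not normalised, and TPM, which the authors scaled by an effective length (250 nt below the transcript length in 99.0% of cases, per the file headers' columns). Here, 30280 transcripts were matched by identifier to Ensembl release 115 (BDGP6.54), whose lengths equalled the files' in 99.4%, and expected counts were summed per gene and rounded.

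The test was the quasi-likelihood test of edgeR 4.0.16 (R 4.3.3; genes kept by filterByExpr at a minimum count of 10, TMM, robust quasi-likelihood fit, stage as the only term, all 4 libraries). SE is the fitted log2 change divided by the root of F. Alternatives were RLE scaling, plain library size, library size without ribosomal protein and rRNA genes, DESeq2 1.42.0, other filters, limma 3.58.1 on log2(TPM + 1) and log2(TPM + 5), thinning, a replicate block and leaving out each library. The 6 scalings named in the text are the TMM fit, RLE, both library sizes, DESeq2 and log2(TPM + 1). Percent left is the ratio of reads per scaled library size, with exact (Clopper-Pearson) intervals.

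The 8 genes and the lists were chosen with earlier results of these data known, so no p was adjusted over them alone. Named from each list were up to 4 called genes per direction with the smallest p and the relatives of cort and wisp. smg, Trpm, the other APC/C genes and the genes overlapping the 8 were named after their values were seen. A list gene under another symbol was matched through RefSeq synonyms, 2 list names (Houki, Souji) had no match, and a pair of names was the same gene (Cks30A). Motif searches and sequences were not used here.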

Additional observations from a re-analysis of the deposited data

How the results depend on the processing

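All 8 genes kept a negative change in all 15 alternatives. 6 of them stayed called in every one, with log2 changes from −7.90 to −4.64 for fs(1)Ya, −7.40 to −5.05 for mtrm, −6.29 to −4.40 for gnu, −5.46 to −3.64 for png, −4.17 to −2.53 for wisp and −3.28 to −0.96 for plu. cort lost its call with DESeq2 (−2.21, adjusted p = 0.055). sra lost it with RLE scaling (−0.66), DESeq2 (−0.74), a minimum count of 30 (−0.65) and the replicate block (−0.66), and leaving out libraries gave −0.98 to −0.44, uncalled in 3 of 4 cases. The cause was not tested.

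Counts over all genes were 1730 higher and 1903 lower with TMM, 656 and 3823 with library size only, 312 and 4798 with log2(TPM + 1), 314 and 4837 with log2(TPM + 5), and DESeq2 called 1026 lower. Over the 5 lists 21 rose and 22 fell with TMM. With library size only 5 rose and 45 fell, with log2(TPM + 1) 3 and 55, with log2(TPM + 5) 3 and 56, and 10 rose with library size without ribosomal protein and rRNA genes. Without single libraries 13 to 19 rose. Where 1 library of a stage was left, it was assumed to vary like the other stage's. Isoform usage was called in 117 of 823 genes, 36 of 297 at a minimum count of 30, 0 of 3059 with all transcripts kept (352 at unadjusted p under 0.05, edgeR) and 0 with the replicate block (90 at unadjusted p under 0.05).

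Replicate numbers are not said to mark a shared collection. Deviations of same-numbered libraries correlated at −0.16. The block moved the counts to 1568 higher and 1694 lower, and a crossed block, chosen after seeing the data, to 1834 and 1954. It changed no other call among the 8 genes. Reads at 4–5 h, 2 to 46 per gene in all, limit how closely what was left can be measured.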
